A study of Mus musculus with 4 samples.

Results

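The loci of 10 genes of the naive pluripotency network, Pou5f1, Klf2, Klf4, Klf5, Esrrb, Tfcp2l1, Tbx3, Prdm14, Zfp42 and Tet1, were examined in Hi-C maps of mouse embryonic stem cells (mESCs), which were derived to ask how the genome folds when the Firre locus is deleted. The genes were chosen by name and with earlier results of these data known, and they are 10 of 21418 autosomal protein-coding genes. Each locus was the gene body and 500 kb on each side, together 269 bins of 40 kb. Tfcp2l1 is listed as Tcfcp2l1 in the annotation used.

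Hi-C cuts crosslinked chromatin, here with HindIII, joins ends that lie close together in the nucleus and counts the joined pairs by sequencing. Male wild-type (WT) mESCs were compared with male mESCs labelled Firre KO, with 2 libraries a group, technical duplicates per the methods, pooled by the authors in 1 matrix a group. Per the methods, WT cells were of the N3 line in 2i medium (2 kinase inhibitors that hold mESCs in the naive state), and Firre KO cells came from a mouse line in which loxP recombination removed the Firre long non-coding RNA gene, and were grown in 2i medium on irradiated feeder fibroblasts that were depleted before use. By the labels and methods, genotype, derivation and feeder culture thus differed together and cannot be told apart. No difference between the matrices has a replicate check.

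Naive mESCs are kept in self-renewal by a network of transcription factors that bind their own and each other's regulatory regions. Pou5f1 (Oct4) stands at its core, while Klf4, Klf5, Esrrb, Tfcp2l1 and Tbx3 carry the signals of the cytokine LIF and of GSK3 inhibition to it. On exit from the naive state most of these genes are switched off, and Pou5f1 is kept longer than most of the others. In the nucleus, active and inactive chromatin fall into compartments named A and B, and within them topologically associated domains (TADs) are regions that contact themselves more than their neighbours, divided by boundaries.

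In mm9, the genes on the plus strand are Pou5f1 at chr17:35642982-35647721, Klf2 at chr8:74842932-74845555, Klf5 at chr14:99697910-99712624, Esrrb at chr12:87702067-87862578, Tfcp2l1 at chr1:120524522-120581744 and Tbx3 at chr5:120120678-120134733. Those on the minus strand are Klf4 at chr4:55540013-55545347, Prdm14 at chr1:13103538-13117244, Zfp42 at chr8:44380422-44392363 and Tet1 at chr10:62267318-62361866. The promoter bin of a gene is the 40 kb bin that holds its 5′ end. Gene density around them differed widely, from 2 protein-coding 5′ ends in the window of Klf4 and 3 in that of Tbx3 to 29 around Klf2 and 69 around Pou5f1.

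The WT matrix held 65611035 read pairs, 16.1% of them between chromosomes, and the matrix labelled Firre KO held 46635652, 35.6% of them between chromosomes. The 40 kb bin that lies wholly within the Firre gene (chrX:47920001-47960000) joined the X chromosome with 1550 read pairs in WT, against 1144 under the Firre KO label. Scaled to 1000000 read pairs of that chromosome, the WT value was 1709 (95% Poisson interval 1625 to 1796) and the other 1437 (1355 to 1523). This bin lies inside the deletion that the methods give, yet most of its signal remained, so a loss of the locus was not seen. The reason was not tested. Hi-C measures no RNA, and the cell type was checked by the compartment of marker loci alone. Of 20 fibroblast loci, 8 lay in A in WT against 17 in the matrix labelled Firre KO, beside 71.5% and 61.5% of all genes. In all, 9 of the 20 passed from B to A, among them Prrx1, Twist1, Col3a1, Lum and Dcn, against 4.97% of all genes. Postn stayed in B, and the preference for A bins, defined below, was lower at 8 of the 20. The passage of fibroblast loci to A goes in the opposite direction to the shift of the pluripotency loci described below. Its part in those results was not tested. All intervals below are 95% intervals that cover counting error only.

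The promoters of 5 of the loci are printed because they bracket the compartment results. Esrrb, Tbx3 and Zfp42 are the loci whose compartment sign differed between the matrices, while Pou5f1 and Klf4 stayed in A. Each sequence is the 300 bases before the annotated 5′ end of the gene, read 5′ to 3′ on the gene's strand of the mm9 genome, with CG dinucleotides, the sites of DNA methylation in mammals, in capitals. They lie at chr12:87701767-87702066 (Esrrb, plus strand), chr5:120120378-120120677 (Tbx3, plus strand), chr8:44392364-44392663 (Zfp42, minus strand), chr17:35642682-35642981 (Pou5f1, plus strand) and chr4:55545348-55545647 (Klf4, minus strand).
Esrrb: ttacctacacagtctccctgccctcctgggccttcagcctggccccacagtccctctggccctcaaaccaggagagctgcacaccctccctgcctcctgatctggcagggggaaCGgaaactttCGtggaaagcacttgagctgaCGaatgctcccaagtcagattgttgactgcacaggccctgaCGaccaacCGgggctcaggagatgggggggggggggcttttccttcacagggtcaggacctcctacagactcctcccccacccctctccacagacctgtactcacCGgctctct
Tbx3: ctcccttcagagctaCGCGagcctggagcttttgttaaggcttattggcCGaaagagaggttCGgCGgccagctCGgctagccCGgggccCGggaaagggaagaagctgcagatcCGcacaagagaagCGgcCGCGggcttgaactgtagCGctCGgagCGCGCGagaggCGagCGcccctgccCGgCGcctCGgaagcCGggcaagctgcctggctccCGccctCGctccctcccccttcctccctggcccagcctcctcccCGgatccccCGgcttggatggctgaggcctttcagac
Zfp42: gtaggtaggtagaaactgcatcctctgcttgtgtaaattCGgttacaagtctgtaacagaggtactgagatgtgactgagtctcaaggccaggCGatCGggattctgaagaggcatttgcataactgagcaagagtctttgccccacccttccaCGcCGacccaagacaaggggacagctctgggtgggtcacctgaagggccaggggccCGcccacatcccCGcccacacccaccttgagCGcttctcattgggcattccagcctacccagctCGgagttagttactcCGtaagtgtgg
Pou5f1: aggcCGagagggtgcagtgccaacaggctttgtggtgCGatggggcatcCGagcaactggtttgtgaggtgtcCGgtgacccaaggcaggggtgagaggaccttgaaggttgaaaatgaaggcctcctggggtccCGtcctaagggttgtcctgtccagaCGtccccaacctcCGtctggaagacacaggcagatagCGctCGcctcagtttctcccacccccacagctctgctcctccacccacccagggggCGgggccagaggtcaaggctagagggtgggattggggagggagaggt
Klf4: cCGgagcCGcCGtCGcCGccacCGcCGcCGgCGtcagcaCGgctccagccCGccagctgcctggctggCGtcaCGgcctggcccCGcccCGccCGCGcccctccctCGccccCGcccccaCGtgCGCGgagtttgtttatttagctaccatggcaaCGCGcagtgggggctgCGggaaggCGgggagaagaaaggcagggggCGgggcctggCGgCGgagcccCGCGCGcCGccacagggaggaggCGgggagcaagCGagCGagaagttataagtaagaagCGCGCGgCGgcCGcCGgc
Over 21412 promoters of this length the median was 10 CG dinucleotides, with quartiles of 3 and 20. Esrrb had 6, Zfp42 10, Pou5f1 10, Tbx3 27 and Klf4 42. Among the other members, Tet1 had 4, Prdm14 8, Tfcp2l1 18, Klf5 24 and Klf2 37. At Esrrb and Tet1 the transcript with the longest coding sequence starts in another bin, at chr12:87762594 and chr10:62342762. Bases before these starts were not counted. The HindIII fragment that held the 5′ end, the unit that Hi-C ligates, ranged from 1128 bases at Esrrb to 6954 at Prdm14.

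All 10 loci lay in the A compartment in WT, but 7 of them in the matrix labelled Firre KO. The compartment was read from the first eigenvector of the contact correlations of a chromosome in 200 kb bins, in SD units and with positive values for gene-rich chromatin. Among all genes, 71.5% lay in A in WT, against 61.5% in the other matrix. The median of the members was 1.35 in WT against 0.66 in the matrix labelled Firre KO, and that of all genes 0.97 against 0.53. By the sign of the eigenvector, Esrrb, Tbx3 and Zfp42 passed from A to B. This change was seen at 14.9% of all genes and at 20.9% of those in A in WT. With all members in A in WT, none could pass from B to A. The eigenvector of the matrix labelled Firre KO took up a smaller share of the variance on every autosome and followed GC content less closely. Its correlation with GC content over the bins of chromosome 12, which holds Esrrb, was 0.376 against 0.631 in WT, that on chromosome 5, which holds Tbx3, 0.475 against 0.813, and that on chromosome 8, which holds Zfp42, 0.59 against 0.789. The part of this in the changes of sign was not tested.

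Esrrb, an orphan nuclear receptor that can stand in for other naive factors, changed most. Its eigenvector was 1.63 in WT, higher than at 91.7% of genes, but -0.89 in the matrix labelled Firre KO, higher than at only 18.1%. The difference of -2.53 placed it in the lowest 0.3% of all genes. Tbx3, a T-box factor, went from 1.34 to -0.22. At Zfp42 (Rex1), a zinc finger protein used as a marker of naive cells, the value went from 0.45, the lowest of the members in WT, to -0.73. In bins of 400 kb, Zfp42 was already in B in WT (-0.43) and 2 members, Esrrb and Tbx3, changed sign.

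Prdm14, a PR domain protein that holds back DNA methylation and differentiation signals, fell from 1.39 to 0.12 and kept its sign by a small margin. Tfcp2l1, a grainyhead-like factor downstream of LIF, had 1.30 and 0.51. The remaining members moved little. Pou5f1 had 1.38 and 1.05, and Klf5 had 1.18 and 0.82. Tet1, the enzyme that oxidises 5-methylcytosine, had the highest value of the members in both matrices, with 1.78 and 1.59. Klf2, with 1.35 and 1.43, and Klf4, with 1.25 and 1.34, were the 2 members whose value was higher in the matrix labelled Firre KO.

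**Figure D1:**
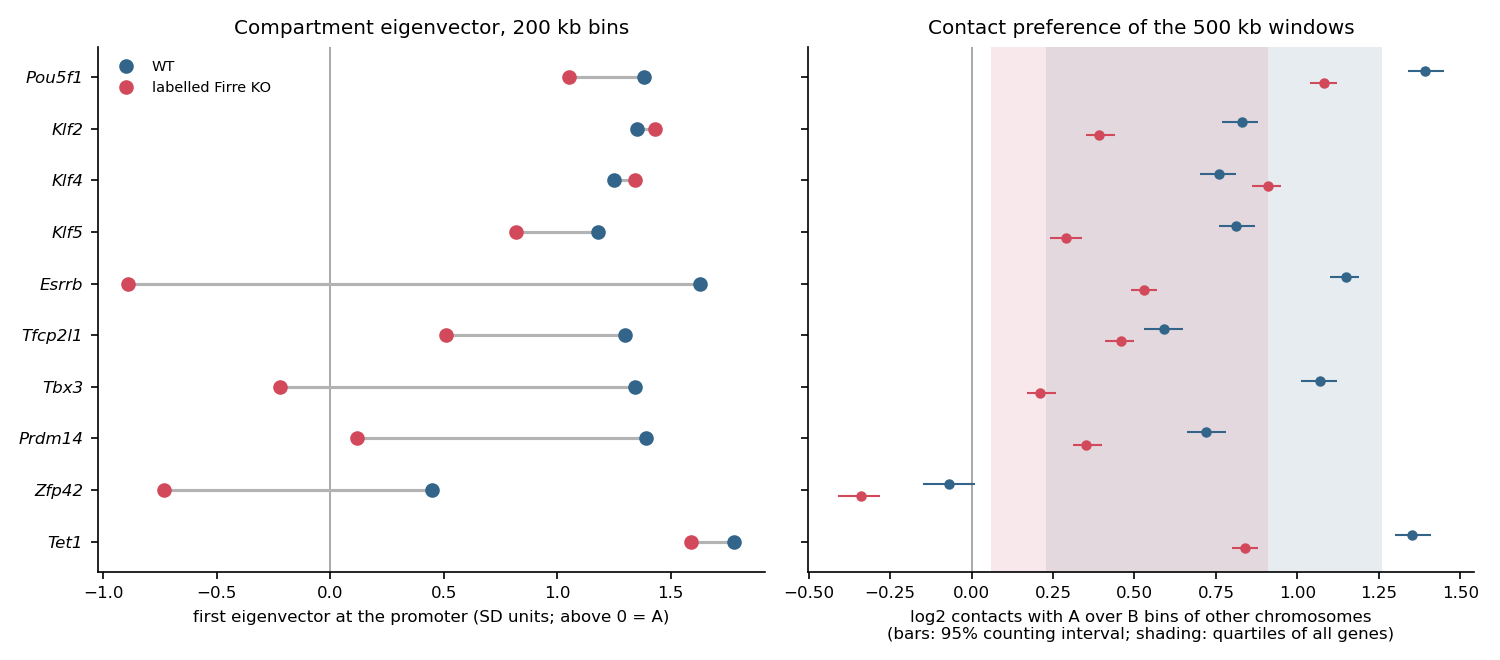
Left, first eigenvector at each promoter (SD units, above 0 is A) for WT (blue) and the matrix labelled Firre KO (red). Right, log2 preference of each locus for A over B bins of other chromosomes, with 95% counting intervals and the quartiles of all genes shaded. Esrrb, Tbx3 and Zfp42 cross 0 on the left, and Klf4 is the locus with the higher preference in red on the right.

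The loci were then asked which chromatin on other chromosomes they contact, a measure that shares no read pairs with the eigenvector. Read pairs between chromosomes were 16.1% of the total in WT against 35.6% in the matrix labelled Firre KO. The part of this in the differences of contacts between chromosomes was not tested. Preference was the log2 ratio of observed over expected read pairs with A bins to that with B bins, with A and B taken from the WT eigenvector in both matrices. Pooled over the members it was 0.94 (0.92 to 0.95) in WT, against 0.54 (0.53 to 0.55) under the Firre KO label, which differ by -0.40 (-0.42 to -0.37). It was lower at 9 of 10 members, and at 82.1% of all genes. The median difference was -0.40 at the members and -0.24 at all genes.

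This measure depends on whose compartments serve as labels. With A and B from the eigenvector of the matrix labelled Firre KO, the pooled difference was 0.04 (0.01 to 0.06) and 4 of 10 members were lower, against 46.4% of all genes. With only the bins that had the same sign in both matrices it was -0.24 (-0.27 to -0.21), and 7 of 10 members were lower, against 57.8% of all genes. The median difference of all genes was then -0.12.

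For 5 members the direction was the same with all 3 sets of labels. Tbx3 differed by -0.85 with the WT labels, -0.61 with those of the matrix labelled Firre KO and -1.01 with the shared bins. It had 9535 read pairs with A and 4116 with B bins in WT, against 9794 and 7569. Esrrb differed by -0.62, -0.25 and -0.59, and Zfp42 by -0.28, -0.35 and -0.42. Klf2, whose eigenvector was slightly higher, also had a lower preference under each set, by -0.43, -0.26 and -0.44. Klf4 was the exception in the other direction, with 0.15, 0.81 and 0.65. With WT labels, Esrrb and Tbx3 still preferred A bins in the matrix labelled Firre KO, with 0.53 (0.49 to 0.57) and 0.21 (0.17 to 0.26). Their eigenvector was nevertheless below 0 there.

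At Pou5f1, Klf5, Tfcp2l1, Prdm14 and Tet1 the sign turned with the labels. Pou5f1 had the highest preference of the members in both matrices with WT labels, 1.39 (1.34 to 1.45) and 1.08 (1.04 to 1.12). Zfp42 had the lowest, -0.07 (-0.15 to 0.01) and -0.34 (-0.41 to -0.28). For the promoter bin alone, with WT labels, the preference of Prdm14 was 1.26 and 0.00, and that of Zfp42 was 0.68 and -0.55.

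Other gene lists were set beside the members. Of 30 other pluripotency loci, 25 lay in A in WT, against 18 in the matrix labelled Firre KO. The 7 that passed from A to B were Sox2 (1.17 to -0.86), Nr5a2 (1.31 to -0.41), Dppa3 (0.65 to -0.41), Utf1 (0.72 to -0.78), Mycn (1.74 to -0.92), Fbxo15 (1.05 to -0.89) and Tcl1 (0.98 to -1.78), and none passed from B to A. The share among all genes in A in WT was 20.9%, beside 7 of 25 here. Sox2, the partner of Pou5f1 on DNA, thus left A while Pou5f1 did not. Of 10 loci of formative and primed pluripotency, 8 and 4 lay in A. Otx2 (0.82 to -1.53), Pou3f1 (1.01 to -0.61), Dnmt3b (1.36 to -0.26), T (0.13 to -0.48) and Foxd3 (0.49 to -1.24) passed to B, and Fgf5 (-1.14 to 0.06) passed to A. That is 5 of the 8 in A in WT, beside 20.9% of all genes in A in WT, and the difference was not tested. These genes act later than the naive factors, so the loci that left A were not limited to naive genes.

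The fibroblast loci moved the other way, with 9 of 20 from B to A and 0 from A to B. Of all genes, 4.97% passed from B to A, which is 17.5% of those in B in WT. Prrx1, a homeobox factor of mesenchyme, went from -0.56 to 1.5, and Twist1 from -0.56 to 1.13. Col3a1, a collagen, went from -0.58 to 1.09, and the proteoglycans Lum and Dcn from -0.99 to 1.25 and from -1.09 to 1.46. Col1a2 (-0.29 to 0.89), Fbn1 (-0.29 to 1.11), Vim (-0.22 to 0.53) and Acta2 (-0.33 to 0.34) made up the 9. The other 11 kept their sign, 8 of them in A, and Postn fell from -0.12 to -0.78. With WT labels the preference for A bins rose by 1.18 at Prrx1 and 1.11 at Lum. It was lower at 8 of the 20, against 82.1% of all genes, with the lowest differences at Pdgfra (-0.79) and Postn (-0.47).

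**Figure D2:**
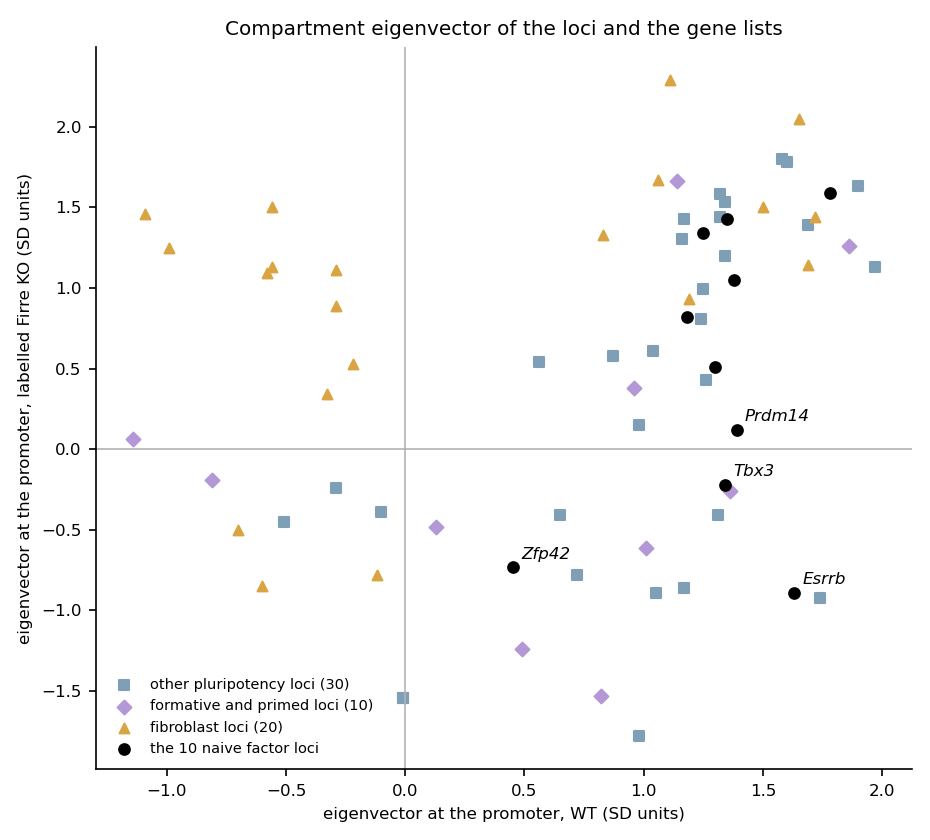
Eigenvector at the promoter in WT (x axis) against the matrix labelled Firre KO (y axis), in SD units, for the 10 naive factor loci (black), 30 other pluripotency loci, 10 formative and primed loci and 20 fibroblast loci. Points at lower right lie in A in WT and in B in the other matrix, and hold Esrrb, Tbx3 and Zfp42. The 9 points at upper left with a triangle are fibroblast loci.

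Local folding was measured by the insulation score, the log2 of the mean contact across a bin, in a square of 480 kb, over the mean of the chromosome, so that low values mark boundaries. At the member promoters it lay between -0.74 (Tfcp2l1) and 0.13 (Esrrb) in WT, against -1.15 (Klf2) to 0.38 (Zfp42) in the matrix labelled Firre KO. The SD of the score over the autosomes was 0.47 in WT, against 0.83 in the matrix labelled Firre KO. The mean difference over the members was -0.15 (-0.18 to -0.12), and it was 0.16, in SD units, once each score was divided by the SD of its chromosome. The median difference was lower at the members than at all genes, -0.35 against -0.25, while the mean was higher, -0.15 against -0.38.

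Klf2 and Tbx3 were lower by 0.5 or more, at -0.54 and -0.53, as were 31.3% of genes. Neither call held with a 240 kb square (-0.25 and -0.24), the plain mean (-0.37 and -0.45) or uncorrected read pairs (-0.37 and -0.40), and with a 960 kb square Klf2 had -0.69 and Tbx3 -0.38. Scores divided by their SD are in SD units, to which the cut of 0.5 log2 does not apply. In these units Klf2 differed by 0.05 and Tbx3 by -0.39. With the plain mean no member was lower by 0.5, and with the 960 kb square Klf5 (-1.11), Pou5f1 (-0.92) and Tet1 (-0.71) were. Pou5f1 was also lower by 0.5 or more with the 240 kb square (-0.72), uncorrected (-0.64) and with WT thinned (-0.55), and Klf5 uncorrected (-0.69) and thinned (-0.53). In SD units Klf5 had -0.50 and Esrrb -0.56. The share of genes past 0.5 was counted for the main setting only. In that setting Zfp42 alone was higher by 0.5 or more, with scores of -0.21 and 0.38, as were 2.65% of genes. In SD units the largest positive differences were 1.15 at Tfcp2l1, 0.92 at Zfp42 and 0.85 at Klf4. The Zfp42 difference of 0.60 exceeded that of 98.5% of genes. The plain mean of the same square gave 0.48 (0.34 to 0.63). The alternatives on the log2 scale lay between 0.48 and 0.68, below 0.5 with the plain mean and with a 240 kb square.

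Among the remaining members, Pou5f1 differed by -0.45, Klf5 by -0.44, Esrrb by -0.39 and Prdm14 by -0.32. Tfcp2l1 was higher by 0.35, Klf4 by 0.18 and Tet1 by 0.04. Pou5f1, Klf5, Esrrb, Tfcp2l1, Tbx3 and Zfp42 kept their sign under each of 7 other settings, and Klf2, Klf4, Prdm14 and Tet1 did not. Some of the values that kept their sign came close to 0. Pou5f1 had -0.01 with scores divided by their SD, Esrrb had -0.07 with a 240 kb square, and Tfcp2l1 had 0.05 with that square and 0.09 with the plain mean.

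The shape of the profile across each locus was mostly shared. The correlation of the 2 profiles over 26 to 30 neighbouring bins, which overlap in their squares and are no independent points, was 0.99 at Klf4, 0.97 at Tbx3, 0.96 at Klf5, 0.94 at Tfcp2l1, 0.92 at Klf2, 0.87 at Prdm14 and 0.84 at Tet1. It was 0.49 at Pou5f1, 0.10 at Esrrb and -0.22 at Zfp42. The median was 0.90 for the members and 0.88 for all genes. Esrrb and Zfp42 thus had the least similar profiles, while Tbx3, the other locus that passed from A to B, had one of the most similar.

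**Figure D3:**
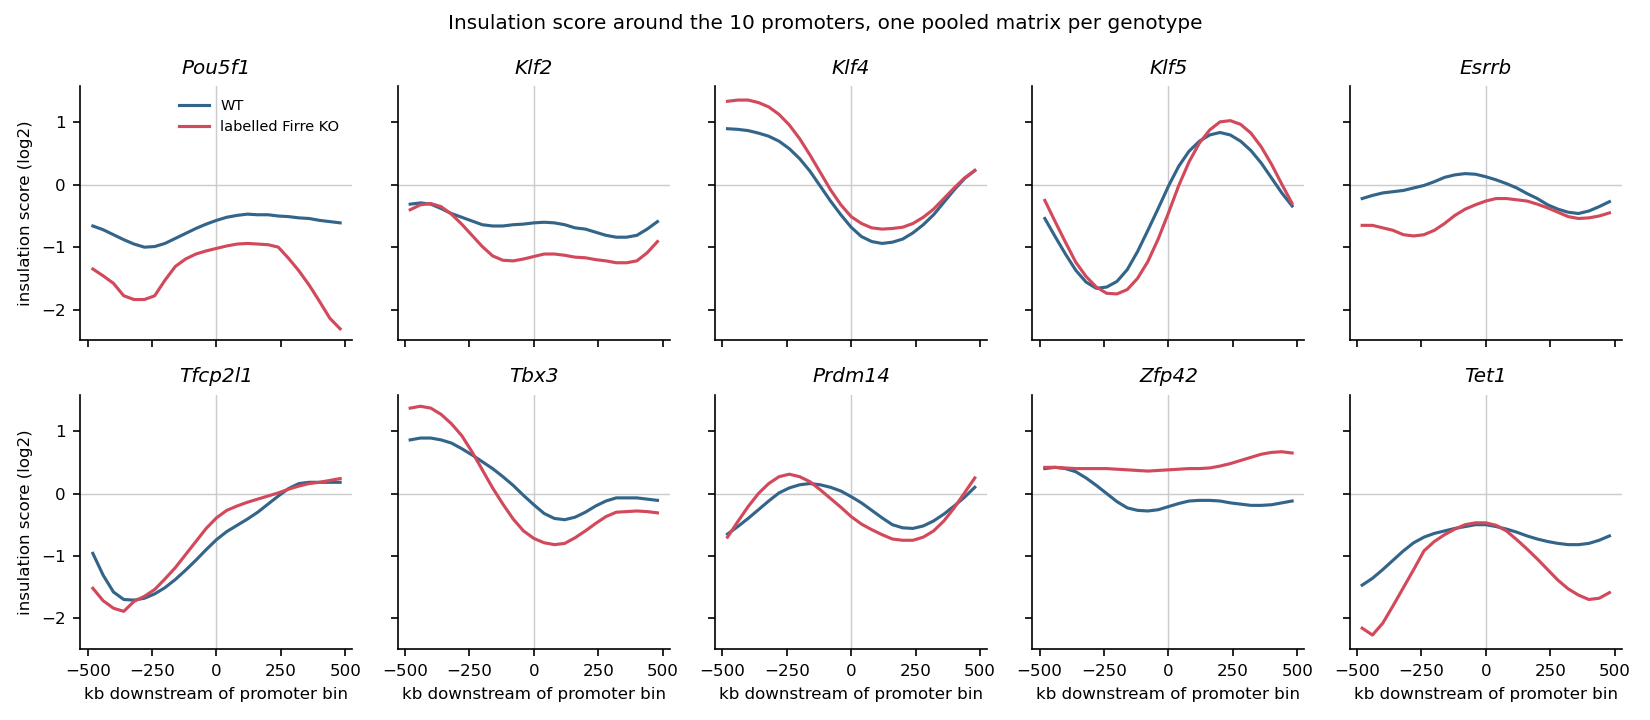
Insulation score (log2) against distance from the promoter bin in the direction of transcription (kb) for WT (blue) and the matrix labelled Firre KO (red), 1 panel a locus. The curves have like shapes at Klf4, Klf5 and Tfcp2l1, and cross at the last 2 of these, and at Zfp42 the WT curve falls to a low plateau around the promoter where the red curve stays above 0.

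Boundaries were called at zero crossings of the slope of the score, and their strength is the fall of that slope from its peak before to its trough after the crossing. The windows held 10 in WT, against 11 in the matrix labelled Firre KO, 1 a locus but for a further one 440 kb upstream of Tet1 in the latter. Within 1 bin, 4 were shared, which is 40% of those in WT and 36.4% of those in the matrix labelled Firre KO, against 44.6% of 2193 and 48.2% of 2027 on all autosomes. Within 2 bins, a tolerance chosen after these values were seen, 9 of 10 and 10 of 11 had a counterpart, against 60.2% and 65.1%. The boundaries at Esrrb had none. The further boundary at Tet1 had its WT counterpart just past the window edge, so 10 against 11 does not mark a boundary of 1 matrix alone.

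Klf5 and Tfcp2l1 lay beside the strongest boundaries of the set in WT. The Klf5 boundary was 280 kb upstream of the promoter in WT (chr14:99400001-99440000) with a strength of 3.46, above 99.5% of WT boundaries, and 200 kb upstream with a strength of 4.08, above 91.2% of boundaries, in the matrix labelled Firre KO, in the bin that holds the 5′ ends of Dis3 and Pibf1. That of Tfcp2l1 was 280 kb upstream in WT, with 3.26 (above 99.3%), and 360 kb upstream in the other matrix, with 2.74 (above 74%). In the latter the boundary 440 kb upstream of Tet1 was stronger, with 3.16. At Klf4 the boundary lay in the same bin in both, 120 kb downstream (chr4:55400001-55440000), with strengths of 2.47 (above 95.7%) and 2.68 (above 72.7%). Scores spread more widely in the matrix labelled Firre KO, and each percentage is of the boundaries of the same matrix.

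The Tbx3 boundary separated the gene from its neighbour Tbx5, another T-box gene with roles in heart and limb. It was 160 kb downstream in WT, in the bin of the Tbx5 start, with a strength of 1.11 (above 49.2%). In the matrix labelled Firre KO it was 120 kb downstream with 2.07 (above 58.3%). Prdm14 had boundaries 240 and 200 kb downstream with strengths of 1.58 (above 71.8%) and 2.15 (above 60.3%). Those of Pou5f1 fell 280 and 320 kb upstream, in the gene-dense major histocompatibility region, with 1.16 (above 51.7%) and 1.45 (above 38%).

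At Esrrb the called boundaries were unrelated in position, 360 kb downstream (0.56) in WT and 320 kb upstream (0.83) in the matrix labelled Firre KO, and both were weak. The Zfp42 promoter itself lay in a boundary bin in WT, with a strength of 0.58, above 17% of WT boundaries. The WT score was lower still 80 kb upstream, at -0.28 against -0.21 at the promoter. In the matrix labelled Firre KO a boundary of 0.26, above 2.86%, was called in that bin 80 kb upstream.

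Contacts of the promoters with bins 80 to 500 kb away were close to the genome average in both matrices. Over the 10 promoters, observed over expected read pairs were 0.924 (0.902 to 0.945) in WT, from 7172 pairs, against 0.932 (0.903 to 0.961) in the matrix labelled Firre KO, from 4012. The log2 ratio was 0.01 (-0.04 to 0.07). No member was higher or lower by 0.5 or more, against 0.964% of genes higher and 6.37% lower. Other settings put 3 members above 0.5, Klf4 (0.54) and Zfp42 (0.56) for 80 to 1000 kb, Zfp42 (0.60) with the mean of corrected values and Prdm14 (0.54) with uncorrected read pairs. The share of all genes above 0.5 was not counted in these settings, so whether these members stand out cannot be told. For all bin pairs at these distances in the windows the log2 ratio was -0.04 (-0.06 to -0.03), with a range over the members from -0.26 at Klf2 to 0.14 at Klf4.

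Esrrb had the lowest ratio, -0.28 (-0.40 to -0.16), and was lower on both sides. Its promoter had 1712 read pairs in WT, 1.12 times the expected number, but 827 in the matrix labelled Firre KO, 0.924 times. With the 5′ end of the transcript with the longest coding sequence the ratio was 0.10, and that of Tet1 was 0.30 against 0.09. Esrrb had -0.14 both for 40 to 500 kb and with uncorrected read pairs, where Pou5f1 was lower (-0.22 and -0.28). With neighbouring bins Klf2 (-0.26) was lower than Esrrb (-0.22). In the main setting Pou5f1 followed Esrrb with -0.26 (-0.46 to -0.06). The highest ratios were 0.30 (0.01 to 0.59) at Zfp42, 0.29 (0.11 to 0.48) at Klf5, 0.29 (0.05 to 0.52) at Prdm14 and 0.24 (0.06 to 0.42) at Tfcp2l1, whose intervals overlap. With the promoter bin and its neighbours, Klf5 had 0.04, Prdm14 -0.04, Tfcp2l1 0.08 and Zfp42 0.17. Those of Klf2, Klf4, Tbx3 and Tet1 included 0.

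Each side of a promoter showed more. Tbx3 was the most lopsided, with 1.74 times the expected read pairs upstream and 0.323 times downstream, towards Tbx5, in WT, against 1.48 and 0.431 in the matrix labelled Firre KO. Zfp42 had 111 upstream read pairs in WT, 0.525 times the expected number (0.432 to 0.633), against 99 in the other matrix, 0.954 times (0.775 to 1.16). This log2 ratio of 0.86 (0.45 to 1.26) was the largest of the 20 sides, at the locus where the WT boundary bin held the promoter, and its downstream side gave -0.27 (-0.71 to 0.16).

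Klf4 gained on the side away from its boundary, from 1.09 to 1.47 (log2 ratio 0.43, 0.22 to 0.63), and had fewer on the downstream side, 0.836 and 0.636 (-0.39, -0.70 to -0.09). In the bins 80 to 120 kb away, up to and including the boundary bin, the values were 1.09 and 0.648 (-0.75, -1.26 to -0.26), and beyond it 0.668 and 0.63 (-0.08, -0.49 to 0.31). These intervals overlap, and the difference between both stretches was not tested. Klf5 likewise had more contacts downstream, away from its boundary, 1.24 and 1.75 (0.50, 0.28 to 0.72). Tfcp2l1, with its boundary upstream, had more contacts downstream too, 0.772 and 1.05 (0.44, 0.19 to 0.68). Other members did not follow this. Prdm14 had more contacts on its boundary side, downstream, 0.732 and 1.12 (0.61, 0.29 to 0.93). Away from their boundaries, Pou5f1 had fewer contacts downstream, 0.961 and 0.731 (-0.39, -0.64 to -0.15), and Tbx3 fewer upstream (-0.23, -0.45 to -0.01).

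**Figure D4:**
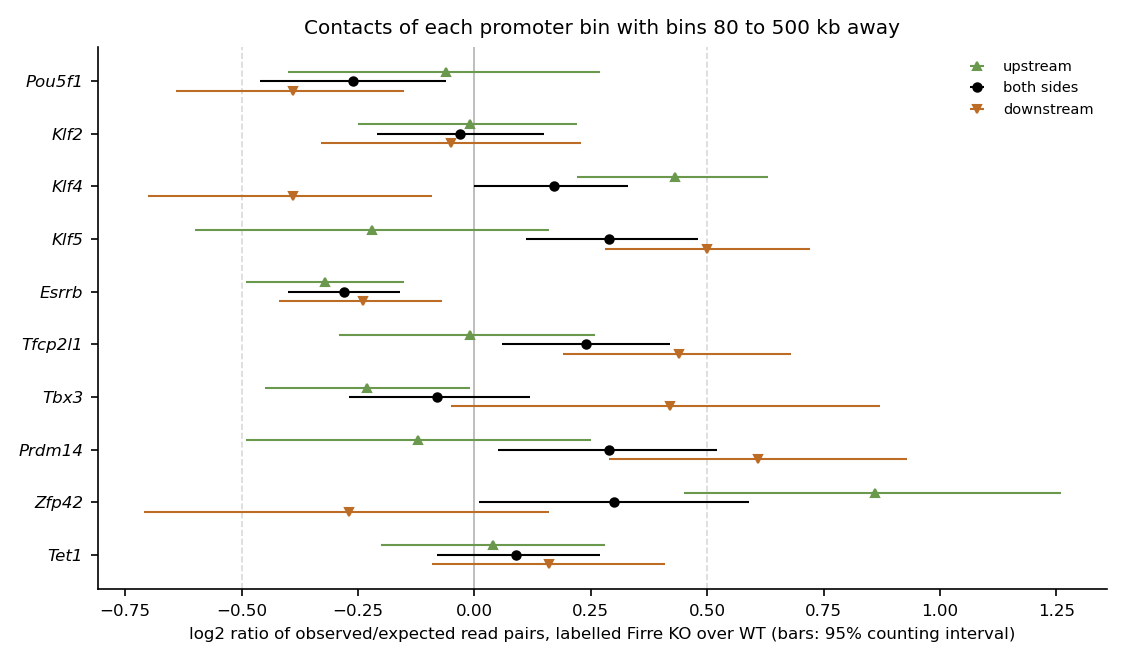
Log2 ratio of observed over expected read pairs, matrix labelled Firre KO over WT, between each promoter bin and bins 80 to 500 kb away, for both sides (black), upstream (green) and downstream (brown), with 95% counting intervals. Dashed lines mark 0.5 on either side. Both-sided values lie within them, and the upstream value of Zfp42 and the downstream value of Prdm14 lie beyond.

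Single partner bins were picked as the highest observed over expected value in 1 matrix, so that the value in the other is the one to read. The strongest WT partner of Esrrb was a bin 240 kb downstream of its promoter, past the 3′ end of the gene (chr12:87920001-87960000), with 157 read pairs and 2.28 times the expected number. In the matrix labelled Firre KO it had 1.63 (1.24 to 2.11), and was again the strongest. Klf2 was joined in both to the bin of the Ap1m1 promoter, 80 kb upstream, at 1.91 (1.65 to 2.20) and 1.97 (1.61 to 2.39).

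Klf5 had the same strongest bin in both matrices, 440 kb downstream, with 33 read pairs (1.81, 1.25 to 2.55) and 44 (3.91, 2.84 to 5.25). Tfcp2l1 did as well, 440 kb downstream, with 1.28 (0.925 to 1.74) and 1.79 (1.22 to 2.52). The bin chosen for Klf4 in the matrix labelled Firre KO, 440 kb upstream, had 3.09 there and 1.57 (1.07 to 2.23) in WT, and that chosen in WT, 280 kb upstream, had 1.89 there and 1.08 (0.578 to 1.86) in the other.

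The WT partner of Zfp42 was the bin of the Triml2 promoter, 120 kb downstream, with 44 read pairs in WT (1.71), against 8 in the matrix labelled Firre KO (0.583, 0.252 to 1.15). For Tbx3, a bin 480 kb upstream had 3.11 in WT and 1.22 (0.448 to 2.66) in the other, from 6 read pairs, and its neighbour at 440 kb, chosen in the matrix labelled Firre KO, had 2.90 there and 2.29 (1.67 to 3.06) in WT. Tet1 was weakly joined to the Rufy2 promoter bin, 80 kb upstream, at 1.27 in WT and 1.06 (0.821 to 1.34) in the other, and the bin of Pbld1, 160 kb upstream, chosen in the matrix labelled Firre KO, had 1.36 there and 0.782 (0.575 to 1.04) in WT. Pou5f1, at the bin of Flot1, Mdc1, Nrm and Tubb5, had 1.87 in WT and 0.938 (0.45 to 1.73) in the other. Its bin chosen in the matrix labelled Firre KO, that of Gtf2h4 and Vars2, had 1.27 there and 1.36 (0.971 to 1.85) in WT. For Zfp42 the bin chosen there, 120 kb upstream, stayed below the expected number, at 0.895, and had 0.624 (0.395 to 0.936) in WT. The WT partner of Prdm14, the Tram1 promoter bin 480 kb upstream, had 2.01 there and 0.689 (0.224 to 1.61) in the other, from 5 read pairs, while that chosen in the matrix labelled Firre KO, its WT boundary bin 240 kb downstream, had 1.80 there and 0.815 (0.466 to 1.32) in WT.

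The windows of members on different chromosomes, 43 pairs, were joined by 351 read pairs in WT, 1.46 (1.31 to 1.62) times the mean of their chromosome pairs. In the matrix labelled Firre KO, 455 read pairs were 1.18 (1.07 to 1.29) times the mean, a log2 ratio of -0.31 (-0.52 to -0.11). Windows of all protein-coding genes gave 1.49 and 1.40 by the same count. The WT value of all genes lies within the interval of the members, and their value in the matrix labelled Firre KO lies above it. A further expectation, from 5 classes of the WT eigenvector used for both matrices, allows for A contacting A by the WT compartments. Against it the members gave 0.839 (0.753 to 0.931) and 0.810 (0.738 to 0.888) and all genes 1.12 and 1.15. On that scale the log2 ratio was -0.05 (-0.25 to 0.16). Classes from the eigenvector of the matrix labelled Firre KO were not run.

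Tet1 had the highest value with the other members in WT, 2.17 (1.77 to 2.63), against 1.28 (1.05 to 1.54) in the matrix labelled Firre KO. Prdm14 had 1.88 and 1.13, and Klf5 had 1.5 and 0.902. Their log2 ratios, -0.76 (-1.17 to -0.36), -0.73 (-1.21 to -0.24) and -0.73 (-1.24 to -0.23), were the lowest of the set. Those of Tet1 and Prdm14 are not separate results, because both totals contain the pair Prdm14 and Tet1. That pair gave 20 of the 103 WT read pairs of Tet1 and of the 72 of Prdm14. Under the Firre KO label it gave 9 of 108 and of 74. Ratios of these loci without the pair were not computed. Against the 5 classes the log2 ratios of Tet1, Prdm14 and Klf5 were -0.42 (-0.83 to -0.02), -0.36 (-0.85 to 0.13) and -0.48 (-0.98 to 0.02). Esrrb did not share this, with 1.43 and 1.32, although its eigenvector had changed sign. Zfp42 was below the mean in both, with 0.735 (0.461 to 1.11) and 0.857 (0.610 to 1.17).

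The pair Prdm14 and Tet1 was the highest of the 43 in WT, with 20 read pairs against 4.42 expected (4.53, 2.77 to 6.99), but 9 against 8.62 (1.04, 0.478 to 1.98) in the matrix labelled Firre KO. It was singled out after its value was seen. Esrrb and Tbx3 were joined at 2.22 (1.32 to 3.51) in WT and at 2.10 (1.39 to 3.03) in the matrix labelled Firre KO. There they were the highest pair, and the eigenvector of both was below 0. Klf5 and Esrrb had 14 and 5 read pairs, 1.93 and 0.465. Klf2 and Esrrb went the other way, with 2 and 16 read pairs, 0.279 (0.0338 to 1.01) and 1.49 (0.852 to 2.42). These and Prdm14 with Tet1 were the 3 of 43 pairs whose ratio had a 95% interval without 0, and among so many intervals some lack 0 by counting error alone. Without any 1 member in turn, the pooled log2 ratio ranged from -0.39 to -0.16. Of the pairs on 1 chromosome, Tfcp2l1 and Prdm14, 107.4 Mb apart, had 1.65 (1.33 to 2.03) and 1.34 (0.983 to 1.79) times the mean at that distance, and Klf2 and Zfp42, 30.4 Mb apart, had 0.816 (0.652 to 1.01) and 0.550 (0.345 to 0.833).

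**Figure D5:**
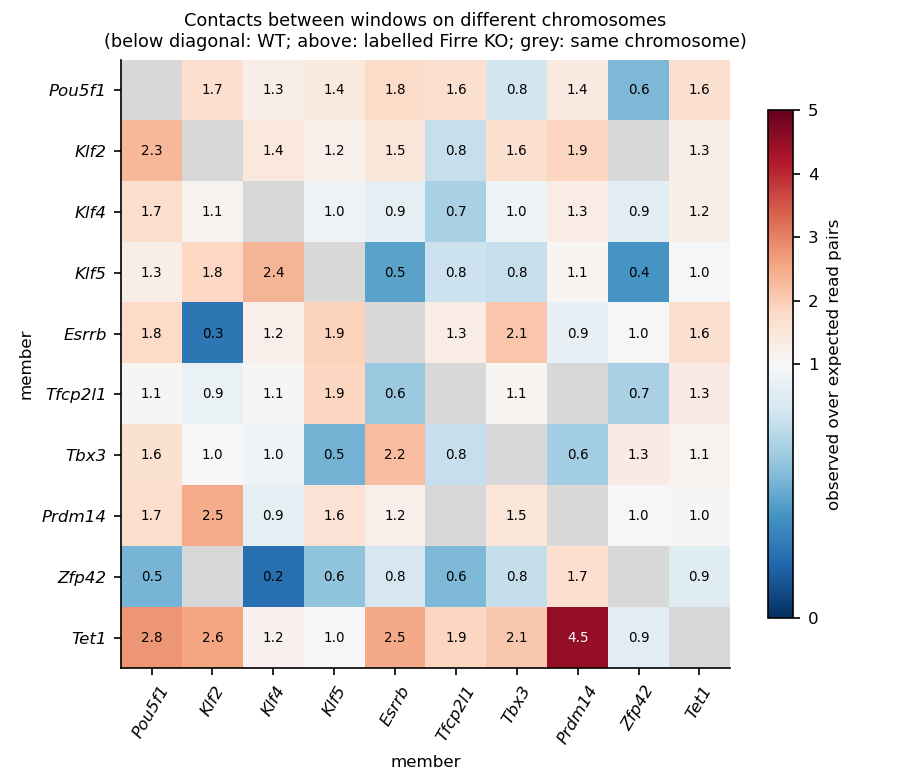
Observed over expected read pairs between the 500 kb windows of members on different chromosomes, WT below the diagonal and the matrix labelled Firre KO above it, with grey for the same chromosome. Prdm14 with Tet1 is the highest WT cell at 4.53 and is near 1 above the diagonal.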

How the data were processed

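Per the labels and the study's methods, in situ Hi-C libraries (HindIII) were mapped to mm9, filtered, binned at 40 kb and iteratively corrected by the authors with HiC-Pro 2.7.8. What the authors deposited is a corrected contact signal for each pair of bins, 1 pooled matrix for 2 libraries a group. A value is read pairs, in whole numbers, times the weights of its bins. Both were recovered by fitting, and 100% of entries came out within 0.05 of a whole number, over 62678 kept bins for WT, against 62625 under the Firre KO label. Chromosome lengths matched the mm9 reference, and genes came from GENCODE vM1.

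Insulation was computed with an own implementation of the study's settings (480 kb square, interquartile mean, 320 kb delta span, 160 kb smoothing, squares at least 50% covered), whose details can differ from the study's script. Expected read pairs were the mean of the chromosome at each distance, or of the chromosome pair, divided by the weights. Intervals are exact Poisson or exact conditional binomial intervals. Those of the insulation and preference differences are analytic, with the weights held fixed, and for insulation come from the plain mean of the square. With 1 matrix a group no significance test was run, and genes and bins are not replicates. A difference was called at 0.5 (log2). Partner bins needed 10 read pairs. All 10 members are named. Other genes are named only if their 5′ end lies in a partner or boundary bin, or if they are in the gene lists and their call changed. The exceptions are 2 listed fibroblast loci, Postn, named because its eigenvector fell, and Pdgfra, named because its preference fell. Members and lists were chosen with earlier results of these data known. Of the 11 formative and primed genes listed, Sox1 was not matched. The alternatives changed the square, its summary, the correction, the scale, the depth, the promoter, the window, the distance range and the compartment labels. The scripts were tested on simulated data. Python 3.11.15, numpy 2.4.6, scipy 1.17.1 and pandas 2.3.3 were used.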

Additional observations from a re-analysis of the deposited data

How the results depend on the processing

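Of 219 alternative values, 132 stayed within the counting interval of the main value (for counts, within 1.5 times). In this count, insulation values in SD units were set against log2 intervals. In all, 25 had the opposite sign to the main value, 7 of them within the interval. The mean insulation difference, -0.15, was -0.27 with a 960 kb square, -0.18 with WT thinned to 54.5% of its read pairs within chromosomes, and 0.16 with each score divided by the SD of its chromosome, where Klf2 gave 0.05. The pooled promoter contact ratio, 0.01, was 0.09 for 80 to 1000 kb, 0.08 for the mean of corrected values and 0.11 for the transcript with the longest coding sequence, and the ratio for whole loci, -0.04, was -0.07 for the mean of corrected values. The pooled preference difference, -0.40, was -0.37 with 400 kb bins, -0.68 for promoter bins, -0.24 with the bins of the same sign in both matrices and 0.04 with labels from the matrix labelled Firre KO. With those labels Pou5f1 gave 0.43, Klf5 0.02, Tfcp2l1 0.20, Prdm14 0.08 and Tet1 0.17, and with the shared bins Pou5f1 gave 0.09 and Tfcp2l1 0.04. The log2 ratio between members, -0.31, was -0.61 with 250 kb on each side and -0.05 against 5 classes of the WT eigenvector. Shared boundaries rose from 4 to 9 within 2 bins. That tolerance, and 400 kb bins and a sign by GC content for the count of loci that changed compartment (2 and 3, against 3), were chosen after seeing the data. Other changes of sign outside the interval were insulation at Klf4 (-0.01 with a 240 kb square, -0.05 uncorrected), Prdm14 (0.23 with 960 kb) and Tet1 (-0.71 with 960 kb), and promoter contacts of Tbx3 (0.31 for 80 to 1000 kb), Prdm14 (-0.04 with neighbouring bins), Klf4 (-0.05 uncorrected) and Esrrb (0.10 with the longest coding sequence). The causes of these changes were not tested. With promoter bins alone, members on different chromosomes had 2 read pairs in WT against 0 in the matrix labelled Firre KO, which gives no ratio.

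No paired analysis was possible because the libraries of a group are pooled in 1 matrix, and leaving out each library was not run for the same reason. Of the values for single pairs on different chromosomes, all but 1 rest on 20 or fewer read pairs.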
